A study of Arabidopsis thaliana with 4 samples.

Results

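The R2R3 MYB genes examined here are members of the plant transcription factor family to which MYB67 itself belongs, and were chosen because their known roles lie mainly outside suberin, lignin, cuticle and flavonoid control. They were taken as a list of 57 loci, all found among the 27444 nuclear protein-coding genes of Arabidopsis thaliana, and a locus was counted as bound when the authors had assigned a MYB67 peak to it. In all, 11 of the 57 genes had an assigned peak and 46 had none. The list is not free of wall biology: MYB52, MYB54 and MYB61 have been linked to secondary walls, MYB26 to wall thickening in the anther, MYB15 to defence lignin and MYB31 to cuticular wax. MYB6 belongs by sequence to subgroup 4, which includes repressors of phenylpropanoid genes.

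R2R3 MYB proteins carry a pair of adjacent MYB repeats that together contact DNA, followed by a variable C-terminal part on which the family is split into numbered subgroups. Members of a subgroup often share a process, so that subgroup 12 controls glucosinolates, subgroup 15 epidermal cell fate and subgroup 19 stamen maturation. Many R2R3 MYB proteins recognise AC-rich elements, which are found in promoters of phenylpropanoid genes.

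The study used DNA affinity purification sequencing (DAP-seq), in which a tagged transcription factor captures fragments of naked genomic DNA in vitro. There were 2 MYB67 libraries, made with Halo-tagged MYB67 from wheat germ extract, and 2 empty vector libraries, made with the Halo tag alone. All of them used genomic DNA of the accession Col-0, which the protocol says came from leaf and the tissue label calls root. The assay uses no living cells, carries no chromatin and measures no expression, so a peak shows that MYB67 held the fragment and not that it controls the gene.

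The deposited peak list held 5390 peaks, and no column of it belonged to a single library. The depth per library is therefore unknown, and no replicate error, interval or test between libraries can be given for any value below. Binding strength is given as fold enrichment, which sets the signal in a peak over a modelled background, and as −log10 q of the peak. Both are the authors' values. Among the 4030 nuclear genes with a peak, the median fold of the strongest peak was 4.47, with quartiles of 3.78 and 5.66.

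The motif that the authors found in the MYB67 peaks is shown because the sites counted in each member's peak are matches to it. The letters are the most frequent base at each of its 10 positions, and capitals mark the 6 positions with more than 1 bit of information.

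MYB67 motif: tccACCTAcC

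At position 7 of this motif T stood at 68.9%, and the A at position 4 and the C at position 6 each stood at 99.7%. The capitals spell an AC-rich core of the kind named above. Sites were found by the authors with FIMO, a motif scanner, and kept up to a site q of 0.05.

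MYB67 peaks were assigned to 19.3% of the 57 MYB genes, against 14.7% of all nuclear protein-coding genes. The bound genes, from the highest to the lowest fold, were MYB25, MYB40, MYB6, MYB52, MYB23, MYB70, MYB65, MYB66, MYB44, MYB88 and MYB57. Their strongest peaks had a median fold of 4.11, against 4.47 over all genes with a peak, and ran from 2.32 to 8.27. Of the 11, 2 lay above the upper quartile of all genes with a peak, 6 lay below the median and 5 lay below the lower quartile, where 24.6% of all genes with a peak lie. The median −log10 q was 6.63 in the bound members and 8.36 over all genes with a peak. No difference in these shares or medians was tested, since the genes were chosen with results of these data known and peaks carry no replicate error.

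Under each stricter definition of a peak the share of members lay near that of all genes. With a −log10 q of at least 10, 4 members had a peak (7.02%, against 6.07% of all genes). With peaks in the upper 50% by fold, 5 members had one (8.77%, against 7.81%), and with peaks that hold a site at a q of up to 0.01, 5 members had one (8.77%, against 7.63%). Counting peaks with any site left 10 members (17.5%, against 14.2%). The 4 members that passed the −log10 q limit were MYB25, MYB40, MYB6 and MYB52. Their median fold was 6.76, against 6.02 over all genes so bound. MYB25 and MYB40 lay above that 6.02, with folds of 8.27 and 8.24. MYB6 and MYB52 lay below it, with folds of 5.27 and 5.03.

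Bound genes came from 7 of the 16 numbered subgroups in the list, as the plot of genes by subgroup shows. Subgroup 15 had a peak at 2 of 3 genes, subgroup 22 at 2 of 4, subgroup 23 at 1 of 2, and subgroups 18, 19 and 21 at 1 of 3 each. Subgroup 4 was represented by MYB6 alone, which had a peak. The other 2 bound genes, MYB40 and MYB88, were among 11 members placed in no numbered subgroup. In the remaining 9 subgroups none of the 27 listed members had an assigned peak. Any genes of a subgroup outside the list were not part of these counts. With 1 to 5 members each, and 14.7% of all genes bound, subgroups are too small for their shares to be ranked or set apart from the background. The same holds for the role classes of 2 to 15 genes by which the members are described next, and their counts are given as a description.

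**Figure D1:**
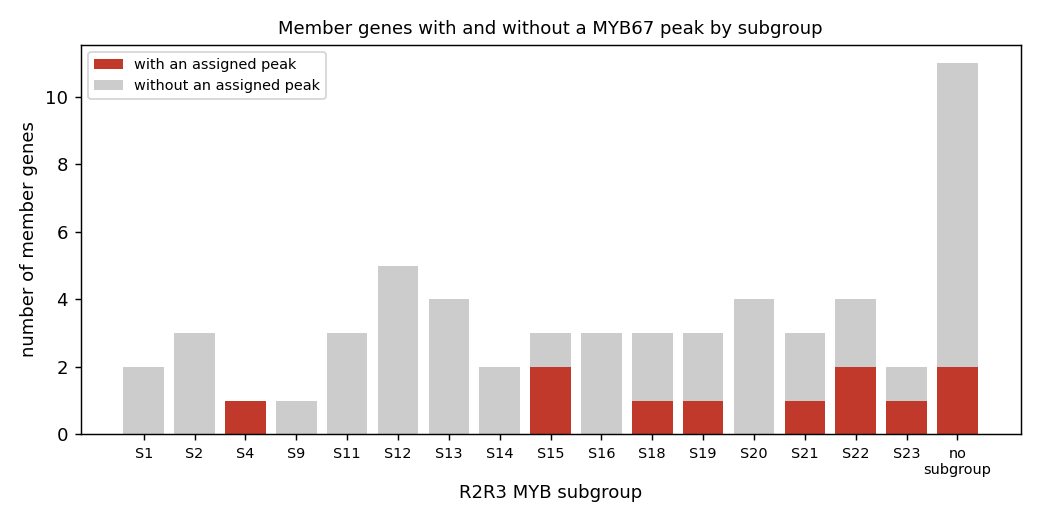
Number of member genes (vertical axis) in each R2R3 MYB subgroup (horizontal axis), split into those with an assigned MYB67 peak (red) and those without (grey). Subgroups 15 and 22 hold 2 bound genes each, and subgroup 12, with 5 members, holds none.

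Of the 5 regulators of epidermal cell fate 3 had an assigned peak, against 14.7% of all genes. MYB23 (AT5G40330), which acts in trichome initiation and in the patterning of root hairs, had a peak at chr5:16128321-16128662 (TAIR10) with a fold of 4.83 and a −log10 q of 8.93. MYB66 (AT5G14750), known as WEREWOLF, which specifies the hairless cell files of the root epidermis, had a peak at chr5:4763374-4763606 with a fold of 3.38 and a −log10 q of 4.37. MYB88 (AT2G02820), which limits divisions in the stomatal lineage, had a peak at chr2:809578-809889 with a fold of 3.01 and a −log10 q of 5.81. MYB23 thus lay above the median of genes with a peak, at percentile 59.8, while MYB66 and MYB88 lay at percentiles 12.9 and 4.26. MYB0 (AT3G27920), or GLABRA1, the trichome regulator of the same subgroup as MYB23 and MYB66, had no assigned peak. The fifth gene, MYB5 (AT3G13540), which acts in trichomes and the seed coat, had none either.

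The MYB23 peak was the single member peak in which FIMO marked no site. It was 342 bp wide, wider than 86.0% of all peaks, with ties counted by their middle rank. Of all 5390 peaks 202 held no site, with a median fold of 3.84, and the MYB23 peak lay at percentile 79.5 of their folds. Its nearest peak, with a summit 3251 bp away, was assigned to no gene and had a fold of 4.38.

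Stress-response genes had peaks at 2 of 15 members (13.3%), near the 14.7% of all genes, and both belonged to subgroup 22, whose genes respond to abscisic acid, wounding and other stress signals. MYB70 (AT2G23290) had a peak at chr2:9905881-9906093 with a fold of 4.11 and a −log10 q of 6.63. MYB44 (AT5G67300, named MYBR1 in RefSeq), known from abscisic acid signalling and stomatal closure, had a peak at chr5:26852591-26852861 with a fold of 3.32 and a −log10 q of 5.27. Both lay below the median of genes with a peak, at percentiles 38.9 and 9.95. The MYB44 peak lay among other binding: the nearest peak, with a summit 1528 bp away, had a fold of 5.10 and was assigned to the neighbouring locus AT5G67290, which had another peak with a fold of 3.18. MYB73 and MYB77, a gene of auxin response, complete this subgroup and had no assigned peak. No peak was assigned to MYB13, MYB14 or MYB15 of subgroup 2, to MYB49, MYB74 or MYB102 of subgroup 11, or to MYB31 or MYB60, a guard cell gene, of subgroup 1. MYB2, MYB62 and MYB116 of subgroup 20 had none.

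Flower and anther regulators had peaks at 2 of 9 members (22.2%, against 14.7% of all genes), and both peaks lay below the lower quartile of fold. MYB65 (AT3G11440), which with its close relative MYB33 encodes a GAMYB factor of anther development held down by miR159, had a peak at chr3:3601650-3601878 with a fold of 3.41 and a −log10 q of 6.31. MYB57 (AT3G01530), which acts with MYB21 and MYB24 in stamen filament growth downstream of jasmonate, had a peak at chr3:212020-212239 with a fold of 2.32 and a −log10 q of 2.24. The MYB57 value is the lowest of the members and ranked 4017 of 4030 genes by fold and 3992 by −log10 q. No peak was assigned to MYB33, MYB21 or MYB24, so in each of these closely related sets a single gene had an assigned peak. The others without a peak were MYB101, a pollen tube gene of subgroup 18, and the anther genes MYB26, MYB35 (TDF1 in RefSeq) and MYB108.

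Among genes placed with wall and polysaccharide roles, 1 of 7 was bound (14.3%), near the 14.7% of all genes. MYB52 (AT1G17950) of subgroup 21, which has been studied in secondary walls and seed mucilage, was the only member of the 57 with more than 1 assigned peak. Of the 4030 genes with a peak 365 had 2 or more, which is 1.33% of all genes. A single member is too few to be set apart from that share. The stronger MYB52 peak, at chr1:6176489-6176849, had a fold of 5.03 and a −log10 q of 10.2. The other, at chr1:6175739-6175978, had a fold of 4.14 and a −log10 q of 8.36, and the summits were 835 bp apart. Each held 1 motif site, with a site q of 0.0132 in the stronger peak and 0.0112 in the weaker. MYB54, its paralogue, and MYB56, a regulator of division in the root quiescent centre, had no assigned peak. The same held for MYB50, MYB55, MYB61 and MYB86 of subgroup 13.

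The highest values belonged to genes outside these classes. MYB25 (AT2G39880) of subgroup 23 had a peak at chr2:16649594-16649904 with a fold of 8.27 and a −log10 q of 25.3. MYB40 (AT5G14340), which has been studied in the response to arsenic, had a peak at chr5:4625123-4625579 with a fold of 8.24 and a −log10 q of 36.4. Their folds differed little, and ranked 287 and 302 of 4030 genes, while by −log10 q MYB40 ranked 155 and MYB25 ranked 376. The MYB40 peak, 457 bp wide, was the widest of the member peaks and held 4 sites, of which 3 had a q of up to 0.01. The MYB25 peak was 311 bp wide and held 2 sites, 1 of them at a q of up to 0.01. MYB109, the other listed gene of subgroup 23, had no assigned peak.

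MYB6 (AT4G09460) followed with a fold of 5.27 and a −log10 q of 11.2, at chr4:5992751-5993046, in a peak with 3 sites. A stronger peak lay close by: at chr4:5994717-5995082, with a summit 2041 bp from that of the MYB6 peak, a peak of fold 11.7 was assigned to the next locus, AT4G09462. With MYB25, MYB40 and MYB6, 3 of the 14 genes of this mixed class were bound (21.4%, against 14.7% of all genes). The remaining 11 had no assigned peak. They were MYB17, MYB18 (LAF1 in RefSeq, a phytochrome A signalling gene), MYB19, MYB27, MYB45, MYB47, MYB48, MYB59, MYB72, MYB95 and MYB109. MYB72 is known from the root response to iron shortage and to beneficial bacteria.

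**Figure D2:**
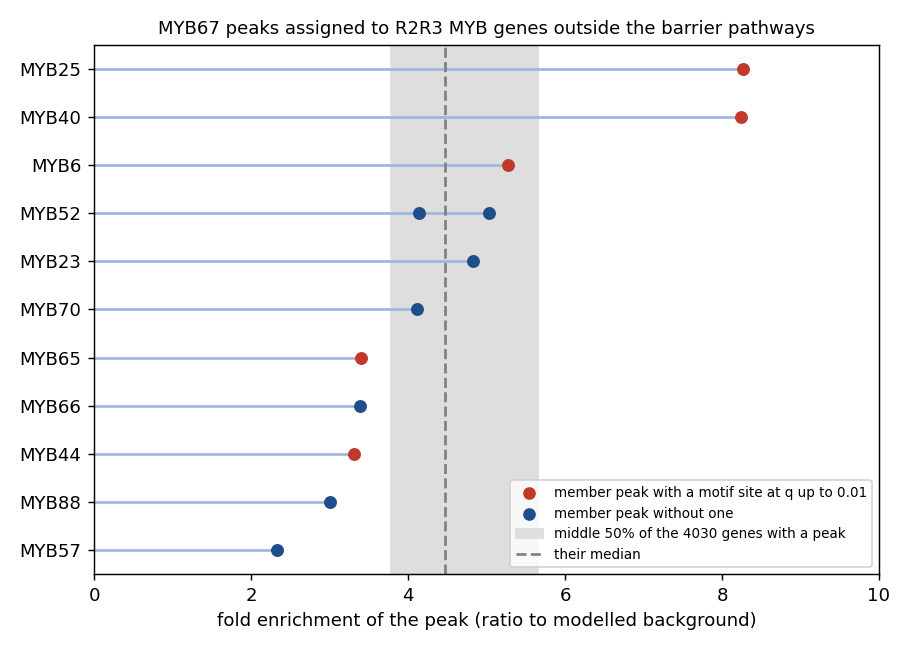
Fold enrichment (horizontal axis, a ratio) of each of the 12 peaks assigned to the 11 bound members (rows), with red points for peaks that hold a motif site at a q of up to 0.01 and blue points for the others. The grey band spans the quartiles of the 4030 genes with a peak, 3.78 to 5.66, and the dashed line is their median of 4.47. MYB25 and MYB40 stand to the right of the band, and MYB65, MYB66, MYB44, MYB88 and MYB57 to the left of it.

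The 5 regulators of glucosinolates had no assigned peak, too few genes to be set apart from the 14.7% of all genes. They are MYB28 and MYB29, which switch on aliphatic glucosinolate synthesis from methionine, and MYB34, MYB51 and MYB122, which switch on indolic glucosinolate synthesis from tryptophan. Of subgroup 14 the list holds MYB38 (RAX2 in RefSeq), which acts in axillary meristems, and MYB87, and both also had none. The same held for the 4 listed genes of subgroup 20 and the 3 of subgroup 16. Any genes of these subgroups outside the list were not counted here. A gene without an assigned peak may still lie near one, because the authors gave each peak at most 1 gene by a rule that the sources used here do not state.

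Fold and −log10 q ordered the members in nearly the same way, as the plot of both measures shows. The ranks of MYB88 and MYB65 differed most. MYB88 ranked 3858 by fold and 2944 by −log10 q, and MYB65 ranked 3496 and 2741. The 50 peaks nearest to MYB88 in −log10 q had a median fold of 3.42, against its own 3.01. For MYB65 that median was 3.80, against its own 3.41, and for MYB40 it was 9.92, against its own 8.24.

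The values also come in steps. Of all peaks, 78.3% shared both their fold and their q exactly with at least 1 other peak, and 9 of the 12 member peaks did so. The MYB23 peak shared its values with 100 other peaks, the MYB6 peak with 60 and the MYB25 peak with 11. Small differences in rank in the crowded middle of the list therefore separate peaks less finely than the ranks appear to.

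**Figure D3:**
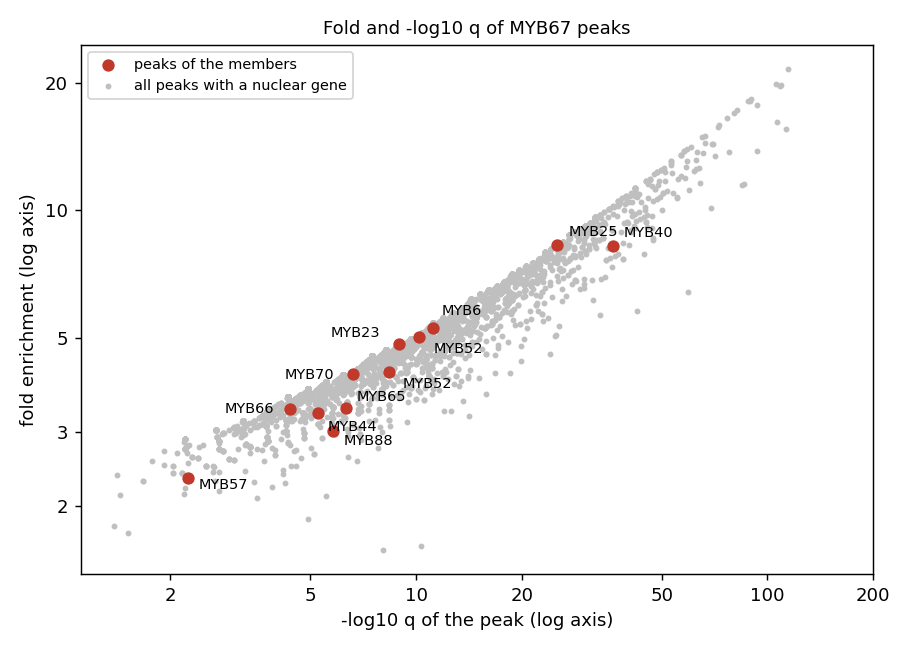
Fold enrichment (vertical axis, logarithmic) against −log10 q (horizontal axis, logarithmic) for the 12 member peaks (red, named) and all peaks assigned to a nuclear gene (grey). MYB25 and MYB40 reach nearly the same fold, 8.27 and 8.24, at a −log10 q of 25.3 and 36.4.

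The member peaks held 20 motif sites in all, or 1.67 per peak, against 2.31 per peak over the whole list. At least 1 site was present in 11 of the 12 member peaks, against 96.3% of all peaks. A site with a q of up to 0.01 was present in 5 of 12, against 47.3% of all peaks, namely in the peaks of MYB25, MYB40, MYB6, MYB65 and MYB44. The lowest site q was 0.00632, in the peaks of both MYB65 and MYB44, whose folds of 3.41 and 3.32 were among the lower ones. MYB25 had a lowest site q of 0.00633 with a fold of 8.27, so peaks with nearly equal lowest site q differed in fold by more than 2-fold. Peaks with such a site had a median fold of 5.27 among the members and 4.68 over the whole list. Peaks without one had 4.11 among the members and 4.23 over the whole list.

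Set against peaks with the same number of sites, the members spread over the whole range. MYB25, with 2 sites, lay at percentile 96.2 of the 1754 peaks with 2 sites, whose median fold was 4.28. MYB65, MYB44 and MYB88, with 2 sites as well, lay at percentiles 15.2, 11.7 and 4.96 of the same peaks. MYB40 lay at percentile 86.2 of the 505 peaks with 4 sites, whose median was 5.12. Of the peaks with 1 site, that of MYB57 lay at percentile 0.608 and the stronger of MYB52 at percentile 74.9. Over all peaks the median fold rose with the number of sites, from 3.84 with no site to 6.17 with 5 or more. The number of sites did not strictly order the members by fold, as the plot of fold against motif sites shows. The member peaks are too few to show whether they depart from that rise.

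**Figure D4:**
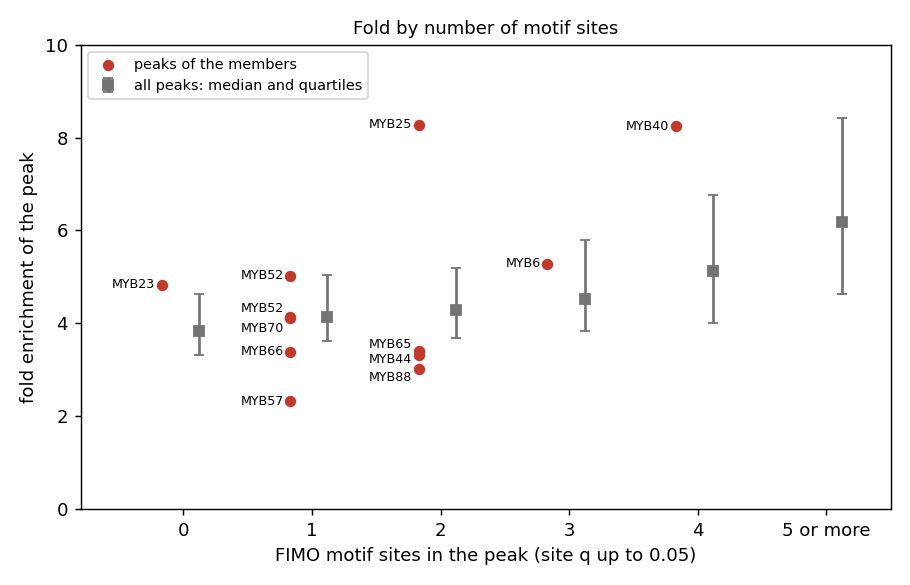
Fold enrichment (vertical axis) by the number of FIMO motif sites in a peak (horizontal axis) for the 12 member peaks (red, named) and for all peaks (grey squares, median, with bars from the lower to the upper quartile). Among peaks with 2 sites, MYB25 lies at 8.27 and MYB65, MYB44 and MYB88 lie at 3.41 and below.

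Member peaks had a median width of 284 bp, from 213 bp at MYB70 to 457 bp at MYB40, against 257 bp over all peaks. Bound and unbound members had nearly the same gene length, with medians of 1809 bp and 1775 bp. Over all nuclear protein-coding genes the medians were 2503 bp with a peak and 2009 bp without. By chromosome, peaks were assigned to 1 of 14 members on chromosome 1, 3 of 7 on chromosome 2, 2 of 15 on chromosome 3, 1 of 7 on chromosome 4 and 4 of 14 on chromosome 5. Over all genes the share with a peak ran from 13.9% on chromosome 3 to 15.1% on chromosome 5, and the members of a chromosome are too few to be set apart from it.

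The R2R3 MYB genes most like these, those of the barrier pathways, were counted in the same way. Of the 57 members 11 had a peak (19.3%) with a median fold of 4.11, and of 40 barrier MYB genes 13 had one (32.5%) with a median fold of 5.27, where 14.7% of all genes had one with a median of 4.47. The order of these medians depended on the peaks counted. With a −log10 q of at least 10 the median was 6.76 in 4 members, 5.77 in 10 barrier genes and 6.02 over all genes so bound. With sites at a q of up to 0.01 it was 5.27 in 5 members, 5.11 in 6 barrier genes and 4.68 over all genes so bound. Under the remaining rules for a peak the order stayed as first given. With the upper 50% of peaks by fold the median was 5.27 in 5 members, 5.77 in 10 barrier genes and 5.54 over all genes. With any site it was 3.76 in 10 members, 5.27 in 13 barrier genes and 4.52 over all genes. None of the 13 lay below the lower quartile of all genes with a peak, where 5 of the 11 members lay, and 5 of the 13 lay above the upper quartile. With a −log10 q of at least 10 a peak was assigned to 7.02% of members, near the 6.07% of all genes, and to 25% of barrier genes (10 of 40). Of 26 other genes with a symbol of MYB and a number, in neither set, 2 had a peak (7.69%), with folds of 3.48 and 10.8. These differences were not tested, and the barrier lists hold genes already known from these data to be bound.

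The barrier lists hold 5 to 12 genes each, too few for their counts to be ranked, and are shown in the plot of fold by list. All 5 genes listed as subgroup 4 repressors had a peak, with folds from 4.38 to 9.02. MYB6, with a fold of 5.27, is a member of that subgroup and also had a peak. Since the list was made with results of these data known, the full count is not a result about the subgroup. The lignin and secondary wall activators had a peak at 4 of 10 genes, the flavonoid regulators at 2 of 8, the suberin and endodermis regulators at 2 of 12 and the cuticle regulators at 0 of 5, where 14.7% of all genes had one. MYB67 itself stands in the suberin list and had no assigned peak.

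**Figure D5:**
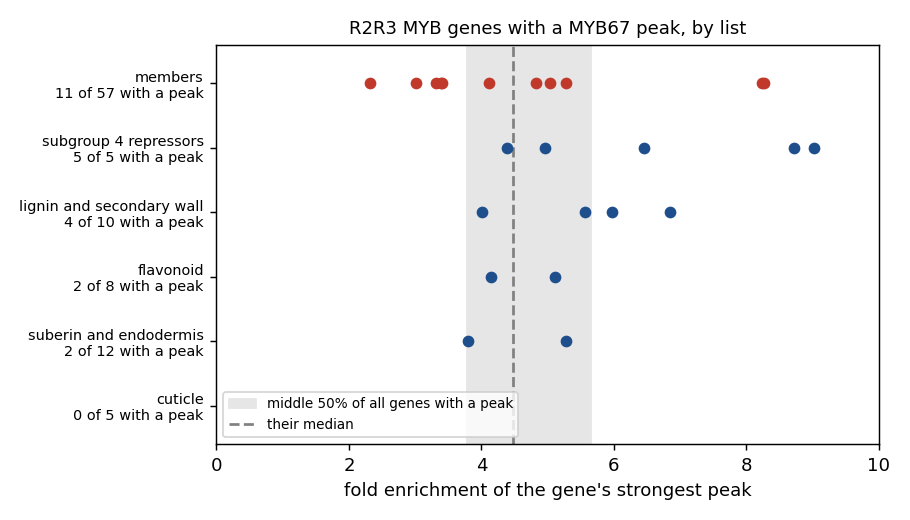
Fold enrichment of the strongest peak (horizontal axis) of each bound gene, with the members in the top row (red) and the barrier MYB lists below (blue), and the number of genes with a peak beside each row. The grey band and dashed line give the quartiles and median of all genes with a peak. The members' folds run from 2.32 to 8.27 and those of the subgroup 4 repressors from 4.38 to 9.02.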

How the data were processed

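Per the submitters' processing notes, MACS3 3.0.0a7, HOMER and bedtools were used, as were STAR 2.7.10a, Trimmomatic 0.39, FastQC and Picard 2.27.1, with the build TAIR10. The role and settings of each tool and the way in which libraries were combined are not given in the sources used here. The deposited files give, for each peak, a fold ratio over modelled background, a −log10 q and the q-value itself, and at most 1 gene. The authors' motif file holds base fractions by position. FIMO sites come with a q-value in a deposited list that names only their peak, so they were counted per peak.

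Genes were matched by locus to the RefSeq table of TAIR10.1. Because that assembly has another name than the build of the peaks, the table served for names, lengths and gene order, and no peak was located relative to exons, introns or promoters. For a gene with several peaks the strongest was used. Percentiles count ties by their middle rank. Subgroups and role classes were assigned from general knowledge of the family. The members and lists were chosen with earlier results of these data known, and no test was made. Every member is named, with values for each one bound. Alternatives were a −log10 q of at least 10, the upper 50% of peaks by fold, peaks with a site, and sites with a q of up to 0.01. Others were the mean over a gene's peaks and ranks by −log10 q. Counting and percentiles were tested on simulated data. Python 3.11.15 with pandas 2.3.3 and matplotlib 3.10.9 was used. No promoter, protein or genome sequence was used.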

Additional observations from a re-analysis of the deposited data

How the results depend on the processing

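Stricter rules for a peak left 4 bound members with a −log10 q of at least 10, 5 with the upper 50% of peaks by fold and 5 with sites at a q of up to 0.01, against 11 with all peaks, since fewer peaks were counted. With the first and last of these rules the median fold of bound members was 6.76 and 5.27. These values lay above the 6.02 and 4.68 of all genes so bound. With the upper 50% of peaks by fold it was 5.27, below the 5.54 of all genes so bound. Counting peaks with any site gave 3.76, below 4.52. With all peaks the median fold of bound members was 4.11, below the 4.47 of all genes with a peak. It was unchanged by averaging a gene's peaks, which lowered the value of MYB52 to 4.59. Their median percentile among genes with a peak was 38.9 by fold and 33.6 by −log10 q. Barrier MYB genes with a peak numbered 13, and 6 with sites at a q of up to 0.01. Motif content of promoters was not run, as no promoter sequence was used. No paired analysis was possible because no deposited value belongs to a single library. The depth of the libraries is unknown, so weak peaks such as that of MYB57 cannot be weighed against it, and a member without a peak was not shown to be unbound.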

Other observations

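Members without a peak of their own sometimes stood beside a bound gene. In gene order, 10 of the 46 unbound members (21.7%) had a peak assigned to an immediately neighbouring protein-coding gene, against 26.4% of all genes without a peak. The same held for 4 of the 11 bound members (36.4%), against 31.2% of all genes with a peak.

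Both neighbours had a peak at 2 of the 46 unbound members, where the same held for 501 of all 23414 genes without a peak. The 2 are too few to be set apart from that background. They are MYB54 and MYB109, and each is the paralogue of a bound member, MYB52 and MYB25. They were singled out after their values were seen. MYB54 lies between AT1G73400, with a fold of 8.50, and AT1G73430, with a fold of 6.47. MYB109 lies between AT3G55720, with a fold of 9.35, and the proline transporter gene PROT2 (AT3G55740), with a fold of 3.63. Whether any of these peaks lies closer to the MYB gene than to the gene it was assigned to was not tested, because no annotation of the peaks' build was used.

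Other unbound members had a peak at 1 neighbour. The highest were VAP27-2 (AT1G08820) beside MYB60 with a fold of 9.70, FUS9 (AT3G13550) beside MYB5 with 9.55 in a peak with 6 sites, and AT3G28460 beside MYB35 with 7.41. Lower folds stood at AT5G54240 beside MYB49 (5.52), MIF1 beside MYB31 (5.33), GAUT11 beside MYB51 (5.18) and AE7 beside MYB62 (4.73). The lowest was that of GPAT7 (AT5G06090), an acyltransferase gene of the suberin pathway, beside MYB33. Its 2 peaks had folds of 4.25 and 3.37, below the median of 4.47 over genes with a peak.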
